A study of Homo sapiens with 6 samples.

Results

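The genes described here are 34 genes of protein folding and quality control in the endoplasmic reticulum (ER), taken by symbol from a table of 38167 genes. They fall into 9 chaperones of the Hsp70 and Hsp90 systems with their partners, 6 disulfide isomerases, 4 genes of the lectin chaperone cycle, 2 translocon subunits, 10 genes of ER-associated degradation (ERAD) and 3 genes of the unfolded protein response (UPR). All 34 were found in the table and all 34 passed the filter on low counts. They were measured in spheroids of Cal27, an established human line of oral (tongue) squamous carcinoma, embedded in Matrigel, a basement membrane extract that gels. The soft group was grown in Matrigel at 3 mg/mL and the stiff group at 12 mg/mL, with no other treatment named, and both were harvested on day 14. Each group held 3 libraries of polyadenylated RNA, which the labels number as biological replicates without saying whether the cultures were separate; the p-values rest on how these libraries vary, which may be technical variation. Matrigel concentration sets the stiffness and the amount of matrix protein together, and the design does not separate them. The comparison asks how the surrounding matrix alters the transcripts of these carcinoma spheroids.

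Proteins that enter the ER are folded by the Hsp70 protein BiP and the Hsp90 protein GRP94, acquire disulfide bonds through protein disulfide isomerases, and, if glycosylated, cycle on and off the lectin chaperones calnexin and calreticulin. Those that fail to fold are recognised by mannosidase-like and lectin proteins, moved back through the membrane and degraded by the proteasome, which is ERAD. When unfolded proteins accumulate, the sensors IRE1, ATF6 and PERK raise the output of the same chaperone and ERAD genes. IRE1 does so by splicing the mRNA of the transcription factor XBP1, and ATF6 by releasing a cleaved factor. Both factors act on ER stress elements in the promoters of their targets. Epithelial cells use this machinery for their adhesion proteins, receptors and secreted matrix.

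To show which members carry such elements, the 250 bases before each annotated start were searched on both strands in RefSeq sequence (build GRCh38.p14), which held a window for 31 of the 34 genes. The motifs were ERSE (CCAAT, then 9 bases of any kind, then CCACG), ERSE-II (ATTGG, any 1 base, then CCACG) and the UPRE core (TGACGTGG), which can overlap each other. ERSE was found in 7 of the 31 members (22.6%) and in 0.0916% of the 27305 genes with a window. ERSE-II was found in 3 members (9.68%) and in 0.0659% of all genes. Of the 43 genes with either element, 10 were members. UPRE was found in 1 member (3.23%), HYOU1, and in 0.78% of all genes. A match describes the letters only and is not evidence that a factor was bound. Only exact matches within the 250 bases were counted, so a gene without one may still hold a near match or a more distant element. The windows of 6 genes that passed the test described below are printed as examples. HSPA5, HYOU1, HERPUD1 and XBP1 carry an element and fell, CALR carries an element and rose, and CLGN carries none and fell furthest. Not printed are CANX, which carries an element and fell, and the 4 element carriers that did not pass (CRELD2, HSP90B1, PDIA6 and SDF2L1). Capitals mark ERSE, ERSE-II or UPRE on either strand, and each sequence runs 5′ to 3′ toward the gene.
HSPA5, chr9:125241344-125241593, - strand: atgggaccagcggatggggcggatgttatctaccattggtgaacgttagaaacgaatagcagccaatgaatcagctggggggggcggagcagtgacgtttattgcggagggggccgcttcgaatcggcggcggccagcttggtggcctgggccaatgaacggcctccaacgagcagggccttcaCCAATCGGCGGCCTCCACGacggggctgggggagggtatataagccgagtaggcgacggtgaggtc
HYOU1, chr11:119057206-119057455, - strand: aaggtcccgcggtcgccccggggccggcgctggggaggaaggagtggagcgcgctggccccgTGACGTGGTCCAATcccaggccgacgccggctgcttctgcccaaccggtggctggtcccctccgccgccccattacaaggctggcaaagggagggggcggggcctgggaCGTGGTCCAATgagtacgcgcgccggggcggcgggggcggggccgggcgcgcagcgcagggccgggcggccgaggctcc
HERPUD1, chr16:56931892-56932141, + strand: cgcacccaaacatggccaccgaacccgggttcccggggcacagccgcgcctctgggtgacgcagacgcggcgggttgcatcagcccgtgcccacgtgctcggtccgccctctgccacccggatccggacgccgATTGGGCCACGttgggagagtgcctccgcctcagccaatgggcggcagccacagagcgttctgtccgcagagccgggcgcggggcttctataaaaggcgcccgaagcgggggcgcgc
XBP1, chr22:28800570-28800819, - strand: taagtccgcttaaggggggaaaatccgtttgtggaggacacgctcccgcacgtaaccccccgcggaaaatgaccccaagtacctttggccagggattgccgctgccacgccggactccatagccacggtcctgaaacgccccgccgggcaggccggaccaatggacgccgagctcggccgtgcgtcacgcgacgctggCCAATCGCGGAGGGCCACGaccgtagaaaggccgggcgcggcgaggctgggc
CALR, chr19:12938359-12938608, + strand: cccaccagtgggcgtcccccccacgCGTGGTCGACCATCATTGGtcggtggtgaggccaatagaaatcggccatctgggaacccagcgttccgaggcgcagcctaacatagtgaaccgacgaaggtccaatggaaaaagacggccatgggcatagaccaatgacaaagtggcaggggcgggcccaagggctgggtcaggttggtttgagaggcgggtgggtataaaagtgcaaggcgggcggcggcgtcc
CLGN, chr4:140427649-140427898, - strand: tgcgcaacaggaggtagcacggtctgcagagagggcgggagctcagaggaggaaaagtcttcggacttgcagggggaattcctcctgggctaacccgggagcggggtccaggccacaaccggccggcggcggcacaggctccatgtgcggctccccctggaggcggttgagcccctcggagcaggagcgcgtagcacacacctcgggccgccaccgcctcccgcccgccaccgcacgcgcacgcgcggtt

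**Figure D1:**
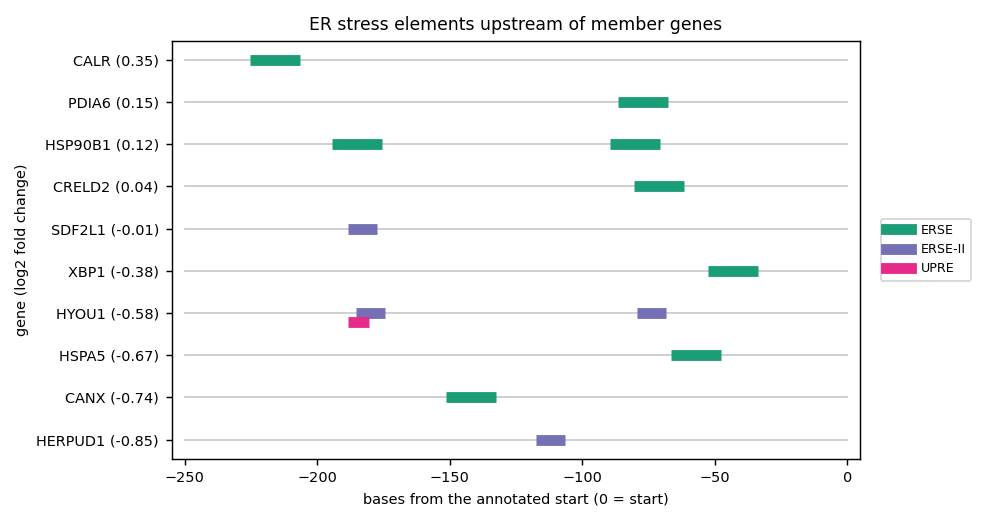
Positions of ERSE, ERSE-II and UPRE matches in the 250 bases before the annotated start of the 10 member genes with an ERSE or ERSE-II (x axis, bases from the start; y axis, genes with their log2 fold change, stiff minus soft). For CANX, 1 of its several start windows is drawn. Genes with an element run from CALR (0.35) to HERPUD1 (-0.85), and HYOU1 and HSP90B1 hold more than 1 match.

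In stiff Matrigel more of these genes fell than rose. In edgeR's quasi-likelihood test, with p adjusted over all 18676 tested genes, 15 of the 34 members were lower in stiff at an adjusted p below 0.05, 3 were higher and 16 did not pass. The 18 genes called in either direction stand beside 49.1% of all tested genes called. The 15 lower genes were 44.1% of the members, against 23.8% of all tested genes called lower; the 3 higher genes were 8.82%, against 25.3% of all tested genes. The median log2 fold change was -0.10 over the members and 0.00 over all tested genes. The genes that fell included the master chaperone HSPA5, the membrane lectin chaperones CANX and CLGN, the translocon channel SEC61A1, the ERAD genes HERPUD1 and SEL1L and all 3 UPR genes. CALR, MANF and EDEM2 rose. Of the called members, 2 were at least 2-fold lower (CLGN and SEC61A1; 5.62% of all tested genes) and 0 at least 2-fold higher (7.6% of all tested genes). Stiff and soft libraries were fully separated in 24 members (59.9% of all tested genes), 17 of them with stiff below soft (29.6% of all tested genes) and 7 with stiff above soft (30.3% of all tested genes).

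**Figure D2:**
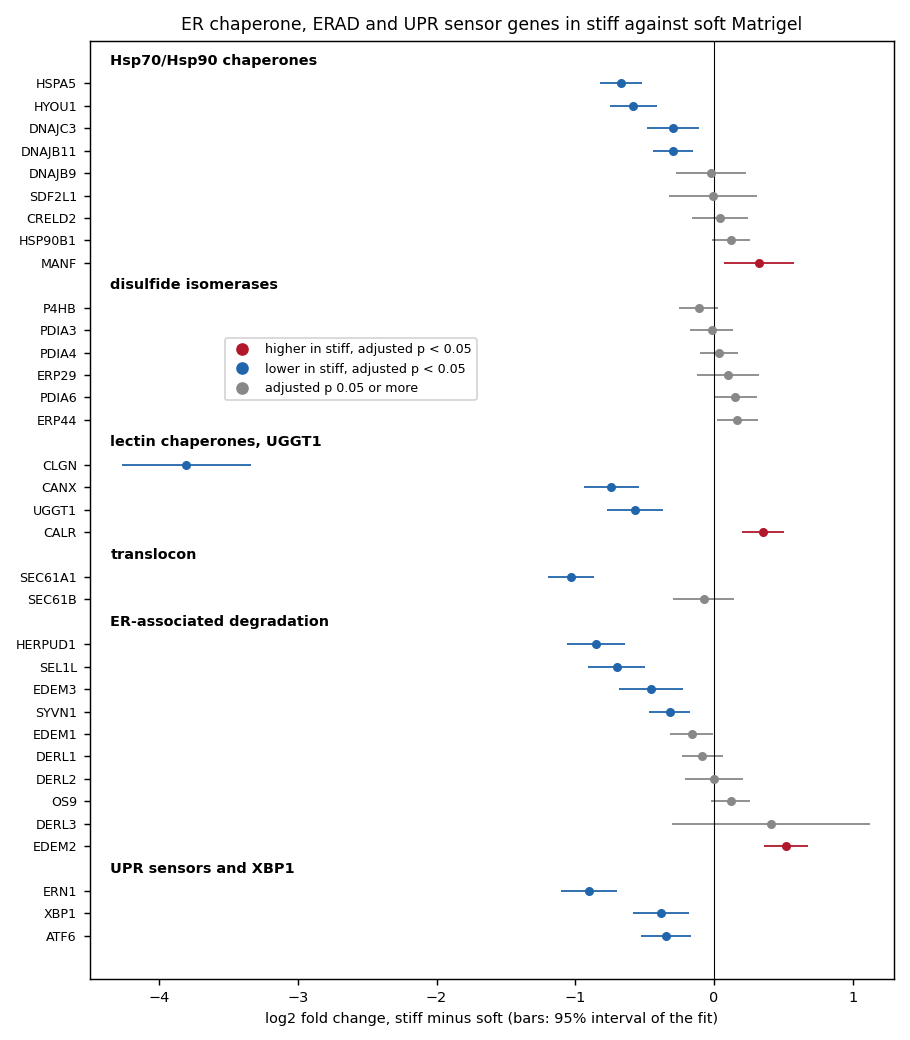
Log2 fold change of each of the 34 genes, stiff minus soft (x axis), grouped by function (y axis); points are edgeR estimates and bars their 95% intervals, coloured by the call. All 3 UPR genes lie below 0, no disulfide isomerase passed, and CLGN lies at -3.80.

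The libraries held 30656278 to 40583044 counted fragments, and the members took 0.811% to 0.835% of them in soft and 0.693% to 0.708% in stiff. Stiff replicate 2 stood apart from the other stiff libraries on the second principal component, which held 10.2% of the variance. Soft replicate 2 lay on the same side of it (-9.31, against -25.9 for stiff replicate 2), and the remaining libraries had positive values. Across the 34 members, the difference between stiff replicate 2 and the other stiff libraries followed merged exon length with a Spearman rho of -0.762 (a description over genes of shared libraries). The members' log2 fold changes, stiff minus soft, also followed exon length, with a rho of -0.507 (likewise a description). After correction for the length trend over all genes, an alternative chosen after seeing the data, 16 members fell and 3 rose, with a median log2 fold change of -0.15. Of all 15803 genes tested in that fit, 4325 fell and 4438 rose. Stiff replicate 2 was the lowest stiff library for 10 of the 15 genes that fell and the highest for the other 5. Without it, 17 members fell and 5 rose. More of all tested genes were called too: 5224 fell and 5379 rose of 19053, against 4449 and 4722 of 18676 with all libraries. Squamous epithelial markers were present: the summed level of 8 markers ran from 4447 to 4854 CPM (counts scaled to library size with TMM factors) in soft and from 15240 to 16132 CPM in stiff, with KRT5, a basal keratin, the most abundant. Of these 8, KRT5, KRT14, KRT6A, SFN and TP63 rose, the adhesion genes CDH1 (1.36-fold, adjusted p = 0.00194) and EPCAM (1.26-fold, adjusted p = 0.011) fell, and DSG3 did not pass (adjusted p = 0.0746). Markers of other cell types were low but moved too: 6 fibroblast markers summed to 72.8 to 80.3 CPM in soft, against 99.1 to 106 in stiff, of which COL1A1 made up most. COL1A1 rose 1.15-fold (71.8 to 82.6 CPM, adjusted p = 0.0432) and LUM, a matrix proteoglycan, 7.55-fold (2.31 to 17.3 CPM, adjusted p = 6.15e-06), with COL3A1 and DCN at means of at most 0.2 CPM. The 4 endothelial markers summed to at most 4.1 CPM in any library, with VWF the most abundant. The 4 leukocyte markers summed to 53.6 to 59 CPM in soft, against 98.5 to 105 in stiff, nearly all of it CD68, with MS4A1 at 0 and PTPRC at a mean of at most 0.0371 CPM. Of the other-cell markers, 2 fibroblast, 1 endothelial and 1 leukocyte gene rose and none fell. Their part in the results below was not tested. In these bulk libraries, fewer cells of a type and less RNA per cell cannot be told apart.

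**Figure D3:**
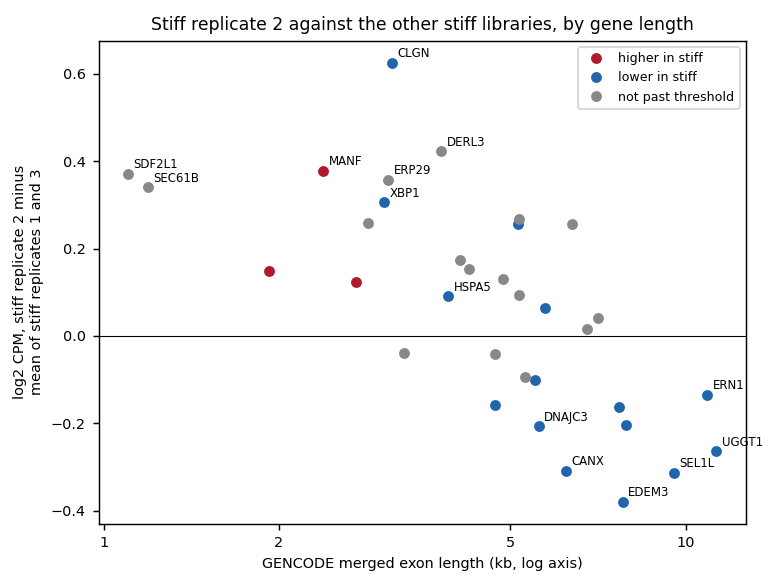
Log2 CPM in stiff replicate 2 minus the mean of stiff replicates 1 and 3 (y axis) against GENCODE merged exon length in kb (x axis, log scale) for the 34 genes, coloured by their call. Short genes such as SEC61B and SDF2L1 lie above 0 and long genes such as SEL1L, UGGT1 and EDEM3 below it.

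Among the Hsp70 and Hsp90 chaperones and their partners, 4 of 9 fell, 1 rose and 4 did not pass. Counts in this and the following groups stand beside 23.8% of all tested genes lower and 25.3% higher. HSPA5 (Entrez 3309, chromosome 9, 125234853 to 125241343, in GRCh38.p14 like all positions here) encodes BiP, the ER Hsp70 that also holds the UPR sensors inactive. Its level was 1035, 1038 and 965 CPM in the soft libraries and 643, 662 and 602 CPM in the stiff libraries. Every stiff library lay well below every soft one. HSPA5 fell 1.59-fold (log2 fold change -0.67, SE 0.068, adjusted p = 3.15e-05). HSP90B1, which encodes GRP94, the ER Hsp90 with a narrower set of clients, was at 849, 816 and 827 CPM in soft against 927, 888 and 900 CPM in stiff. The groups did not overlap, but the difference of 0.12 did not pass (95% interval -0.01 to 0.26, adjusted p = 0.119; adjusted p = 0.0304 without stiff replicate 2). Within each library, the ratio of HSPA5 to HSP90B1 counts, which does not depend on library scaling, went from 1.22 ± 0.0527 in soft to 0.703 ± 0.0395 in stiff (SD, n = 3). These 2 chaperones of the ER lumen did not move together.

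HYOU1 (Entrez 10525, chromosome 11, 119044188 to 119057205), a large Hsp70 relative that exchanges nucleotide on BiP, was at 121, 113 and 108 CPM in the soft libraries and 79.4, 70.3 and 78 CPM in stiff. It fell 1.5-fold (SE of the log2 value 0.076, adjusted p = 0.000162), with no overlap between groups. DNAJB11 and DNAJC3, J-domain proteins that deliver clients to BiP, each fell 1.23-fold (adjusted p = 0.00425 and 0.0139). DNAJB11 went from 113 ± 4.09 to 92 ± 3.34 CPM and DNAJC3 from 101 ± 3.59 to 82.4 ± 8.51 CPM (SD, n = 3). The DNAJC3 call was lost without soft replicate 1 (adjusted p = 0.062) and in the unfiltered limma fit of log2(TPM + 1) (adjusted p = 0.0654; the alternatives ran from 0.00216 to 0.0654).

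MANF, a small secreted protein that binds BiP, was the member of this group that rose. It was at 25.4, 25.4 and 23.3 CPM in the soft libraries and 29.4, 36.6 and 26.9 CPM in stiff, so the groups did not overlap but stiff replicate 2 lay well above the rest. The rise of 1.25-fold (adjusted p = 0.0364) was lost when any 1 of the 3 soft libraries was left out (adjusted p = 0.0827 to 0.135), in the 3 TPM fits (0.122 to 0.185), with library size scaling (0.0717) and with the length-trend correction (0.0633). DNAJB9, a BiP cochaperone and classic XBP1 target, was at 24.4 ± 2.79 CPM in soft, against 24 ± 2.87 CPM in stiff (SD, n = 3, 95% interval of the log2 difference -0.27 to 0.23, adjusted p = 0.891). SDF2L1, which works with BiP and J proteins, had means of 10.7 ± 1.48 and 10.7 ± 1.69 CPM (soft and stiff, SD, n = 3; interval -0.32 to 0.31, adjusted p = 0.972). CRELD2, an ER stress-inducible isomerase-like protein, had means of 36.6 ± 1.64 and 37.6 ± 4.14 CPM (soft and stiff, SD, n = 3; interval -0.16 to 0.24, adjusted p = 0.726). The signs of these 3 differences changed between alternatives.

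**Figure D4:**
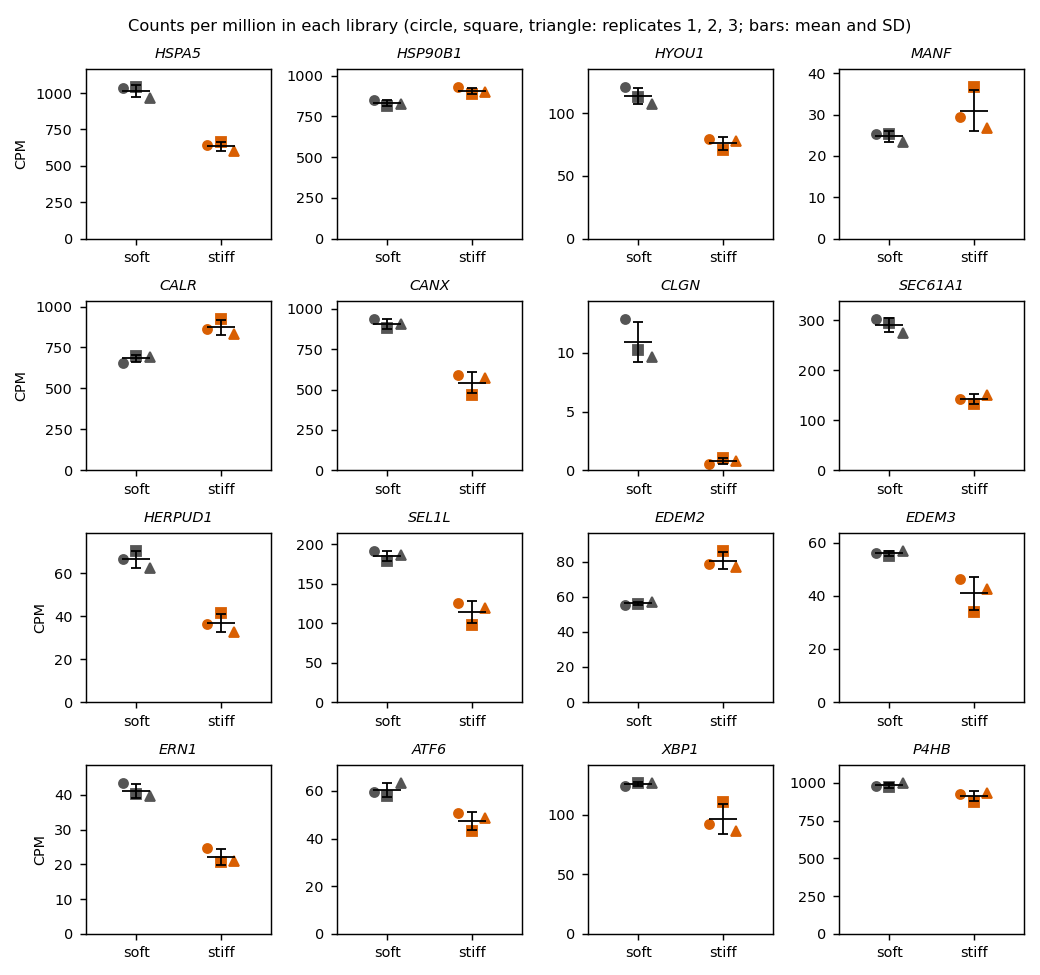
Level of 16 of the genes in each library (y axis, CPM from 0; x axis, condition; circle, square and triangle for replicates 1, 2 and 3; horizontal bar and whiskers, mean and SD). HSPA5, CANX, SEC61A1, HERPUD1, SEL1L and ERN1 are lower in every stiff library than in any soft one, and CALR and EDEM2 are higher.

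Of the 6 disulfide isomerases, 0 passed the test in edgeR, 0 in DESeq2 and 0 in limma on TPM, and 1 (ERP44) had an unadjusted edgeR p below 0.05. These enzymes form and rearrange disulfide bonds in the ER lumen. P4HB, the founding member and a subunit of collagen prolyl hydroxylase, was at 978, 973 and 1002 CPM in soft against 930, 873 and 934 CPM in stiff (95% interval of the log2 difference -0.25 to 0.03, adjusted p = 0.172). It was called lower with library size scaling (adjusted p = 0.0468). PDIA3, the isomerase that works with calnexin and calreticulin on glycoproteins, had means of 434 ± 1.89 and 428 ± 29.1 CPM (soft and stiff, SD, n = 3; interval -0.17 to 0.14; adjusted p = 0.845). PDIA4 had means of 282 ± 8.23 and 289 ± 4.92 CPM (soft and stiff, SD, n = 3; interval -0.10 to 0.17, adjusted p = 0.657), and ERP29, a redox-inactive relative, means of 115 ± 6.1 and 123 ± 18.4 CPM (SD, n = 3, interval -0.13 to 0.33, adjusted p = 0.437). PDIA6 was at 337, 342 and 339 CPM in soft against 368, 408 and 356 CPM in stiff, without overlap (adjusted p = 0.0937). ERP44, which retains unassembled proteins in the early secretory pathway, was at 164, 169 and 167 CPM in soft against 186, 198 and 176 CPM in stiff, also without overlap (adjusted p = 0.0615). ERP44 was called higher with length-trend correction (adjusted p = 0.0282), with the replicate block (0.0412) and without stiff replicate 2 (0.0486). The intervals of all 6 genes lay between -0.25 and 0.33, so changes of the size seen for HSPA5 lay outside them. Reads of PDIA3 and its pseudogene PDIA3P1, whose row held 44.4% as many counts, may have been split, and ATP6V1C2 covers 25.2% of the exons of PDIA6 on the opposite strand, so the counts of both genes are uncertain. Antisense partners also cover 14.8% of the exons of PDIA3 and 17.5% of those of ERP29. The first, ELL3, had 1899 counts over all libraries, against 91779 for PDIA3. The partner of ERP29 has no counts listed under its GENCODE name.

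All 4 genes of the lectin chaperone cycle passed the test, 3 lower and 1 higher. CALR (Entrez 811, chromosome 19, 12938609 to 12944489) encodes calreticulin, the soluble lectin chaperone and calcium store of the ER lumen. It was at 658, 700 and 694 CPM in soft against 864, 923 and 831 CPM in stiff, with every stiff value above every soft value. CALR rose 1.28-fold (log2 fold change 0.35, SE 0.068, adjusted p = 0.00184). CANX (Entrez 821, chromosome 5, 179678656 to 179731641) encodes calnexin, its membrane-bound relative. It was at 935, 878 and 903 CPM in soft against 588, 467 and 570 CPM in stiff. CANX fell 1.67-fold (log2 fold change -0.74, SE 0.09, adjusted p = 0.000101), and stiff replicate 2 was the lowest library. The CALR to CANX count ratio was 0.704, 0.798 and 0.768 in the soft libraries and 1.47, 1.98 and 1.46 in the stiff libraries. These are ratios of fragments, not corrected for exon length, and show the shift between groups and not which transcript was more abundant; per kilobase of exon CALR lay above CANX in both groups.

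CLGN (Entrez 1047, chromosome 4, 140388453 to 140427648) encodes calmegin, a calnexin relative best known from the testis. It had 534, 349 and 300 fragments in soft and 19, 36 and 28 in stiff, or 12.9, 10.2 and 9.65 CPM against 0.551, 1.01 and 0.776 CPM. Its 13.9-fold fall was the largest among the 34 genes (log2 fold change -3.80, SE 0.21, 95% interval -4.27 to -3.33, adjusted p = 6.76e-07). Over the alternatives its log2 fold change ran from -4.03 to -2.59 and each kept the call. UGGT1, which tags incompletely folded glycoproteins so that they bind the lectin chaperones again, went from 109 ± 7.43 to 73.5 ± 7.56 CPM (SD, n = 3), a 1.48-fold fall (adjusted p = 0.000539).

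The Sec61 translocon is the channel through which new proteins enter the ER. SEC61A1 (Entrez 29927, chromosome 3, 128051641 to 128071683), the pore-forming subunit, was at 302, 295 and 274 CPM in soft against 143, 132 and 151 CPM in stiff. It fell 2.04-fold (log2 fold change -1.03, SE 0.075, adjusted p = 3.54e-06). SEC61B, a small subunit of the same complex, was at 69.9, 76.8 and 71.3 CPM in the soft libraries and 63.3, 80.3 and 63.5 CPM in stiff, with overlapping groups (interval of the log2 difference -0.29 to 0.15, adjusted p = 0.556). Stiff replicate 2 held the highest SEC61B value of all 6 libraries, and SEC61B was called lower without it (log2 fold change -0.20, adjusted p = 0.00711) and with length-trend correction (-0.23, adjusted p = 0.00759). The SEC61A1 to SEC61B count ratio was 4 ± 0.279 in soft and 2.1 ± 0.398 in stiff (SD, n = 3).

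Of the 10 ERAD genes, 4 fell, 1 rose and 5 did not pass. HERPUD1 (Entrez 9709, chromosome 16, 56932142 to 56944864), a membrane protein that assembles ERAD complexes and is strongly induced by ER stress, was at 66.5, 70.4 and 62.5 CPM in soft. In stiff it was at 36.5, 41.3 and 32.8 CPM, a 1.8-fold fall (log2 fold change -0.85, SE 0.094, adjusted p = 5.6e-05). SEL1L, the adaptor of the central ERAD ubiquitin ligase, was at 191, 179 and 186 CPM in soft against 125, 98 and 119 CPM in stiff, a 1.63-fold fall (adjusted p = 0.000157). SYVN1, the ligase itself, also called HRD1, went from 171 ± 5.45 to 137 ± 5.77 CPM (SD, n = 3), a 1.25-fold fall (adjusted p = 0.00257). Both partners of the ligase complex were therefore lower, and neither showed overlap between groups.

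The EDEM genes encode mannosidase-like proteins that mark misfolded glycoproteins for ERAD, and their 3 members differed. EDEM2, which starts the mannose trimming, rose from 55.5, 56 and 57.1 CPM in soft to 78.4, 86.1 and 77 CPM in stiff, 1.43-fold (log2 fold change 0.52, SE 0.07, adjusted p = 0.000209). EDEM3, which continues the trimming, fell from 56.3, 55 and 56.9 CPM to 46.2, 34.1 and 42.6 CPM, 1.37-fold (adjusted p = 0.00508). The unfiltered limma fit of log2(TPM + 1) did not call EDEM3 (adjusted p = 0.056), and its largest value in the other 17 alternatives was 0.0337. EDEM1, a UPR target that binds substrates for ERAD, was at 51.1, 50.3 and 50.4 CPM in the soft libraries and 47.4, 45.6 and 42.9 CPM in stiff. Its groups did not overlap but it did not pass (adjusted p = 0.0823); it was called lower without stiff replicate 2 (0.0284), with library size scaling (0.0251) and in 2 of the TPM fits (0.0466 and 0.0426). The EDEM2 to EDEM3 count ratio was 1 ± 0.0176 in soft and 2.01 ± 0.45 in stiff (SD, n = 3).

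OS9, a lectin that delivers trimmed glycoproteins to SEL1L, was at 459, 450 and 457 CPM in soft against 484, 516 and 483 CPM in stiff, without overlap and without a call (adjusted p = 0.14). An antisense partner covers 13.5% of the exons of OS9. That partner has no counts listed under its GENCODE name, so its effect on the OS9 counts is not known. The derlins are membrane proteins of the retrotranslocation step. DERL1 had means of 104 ± 5.45 and 98.3 ± 1.67 CPM (soft and stiff, SD, n = 3; adjusted p = 0.319; 0.0428 to 0.045, lower in stiff, in the 3 TPM fits) and DERL2 means of 35.5 ± 1.71 and 35.5 ± 4.02 CPM (SD, n = 3, adjusted p = 0.995). DERL3 had 29, 21 and 18 fragments in soft and 18, 35 and 37 in stiff (adjusted p = 0.311), and SMARCB1 covers 77% of its exons on the opposite strand, so without the strand setting its few counts cannot be told apart from those of that gene.

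All 3 UPR genes fell. ERN1 (Entrez 2081, chromosome 17, 64039142 to 64130144), which encodes the sensor IRE1, was at 43.5, 40.4 and 39.6 CPM in the soft libraries and 24.6, 20.7 and 21 CPM in stiff. It fell 1.86-fold (log2 fold change -0.90, SE 0.09, adjusted p = 2.95e-05). ATF6, the sensor that is cleaved in the Golgi to release a transcription factor, was at 59.6, 57.9 and 63.5 CPM in the soft libraries and 50.6, 43 and 48.5 CPM in stiff, a 1.27-fold fall (adjusted p = 0.00548). XBP1, whose mRNA IRE1 splices, was at 125, 127 and 127 CPM in the soft libraries and 92.4, 111 and 86.9 CPM in stiff, a 1.3-fold fall (adjusted p = 0.00567). None of the 3 had overlapping groups, and the 3 calls were kept in all 18 alternatives. Counts per gene hold the spliced and unspliced forms of XBP1 together and do not measure the cleavage of ATF6, so they give transcript levels and not the activity of either arm.

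**Figure D5:**
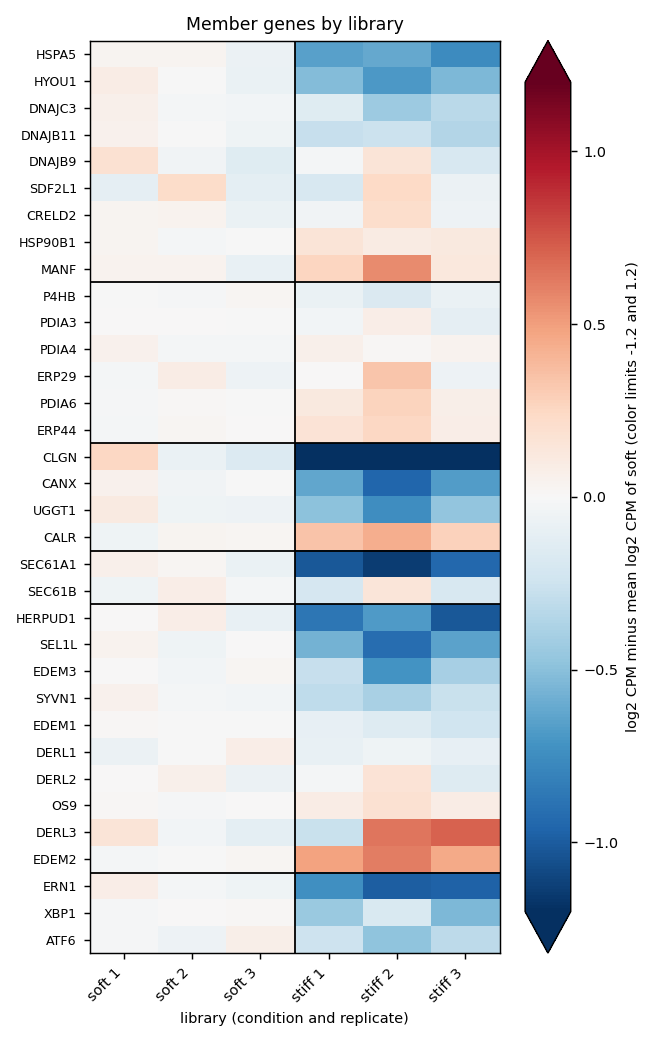
Log2 CPM of each gene minus its mean log2 CPM in soft, in each of the 6 libraries (x axis) for the 34 genes ordered by function (y axis); blue is lower and red higher than the soft mean, with colours saturated at 1.2. CLGN, SEC61A1, HERPUD1 and ERN1 are blue in all 3 stiff libraries, the disulfide isomerases stay pale, and stiff replicate 2 is the darkest blue for CANX, SEL1L and EDEM3.

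Calls fell on genes with and without an ER stress element, and the difference between these sets was not tested. Of the 10 members with ERSE or ERSE-II, 5 fell, 1 rose and 4 did not pass; their median log2 fold change was -0.20. Of the 21 with a window but no exact match to either element, 10 fell, 2 rose and 9 did not pass, with a median of -0.16. Both sets stand beside 15 of all 34 members lower and 3 higher. Of all tested genes, 23.8% were lower and 25.3% higher. HSPA5 and HSP90B1 both carry ERSE, with log2 fold changes of -0.67 and 0.12. HERPUD1 and SDF2L1 both carry ERSE-II, with -0.85 and -0.01. The exact ERSE match of HSPA5 lies 48 to 66 bases before the start in the window printed above, and that of CALR, on the other strand, 207 to 225 bases before it.

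The levels of the members differed widely. Per kilobase of merged exon (GENCODE release 29), HSPA5 was the most abundant member in soft (259 ± 10.6 CPM per kb, SD, n = 3), next to CALR (252 ± 8.36), P4HB (186 ± 2.9), HSP90B1 (177 ± 3.65) and CANX (145 ± 4.62). HSPA5 and CALR did not differ beyond their spread in soft. This order depends on the lengths used. In the deposited TPM, CALR (mean 1536) and HSP90B1 (1278) lay above HSPA5 (1101) in soft, each with 1 transcript listed in RefSeq. In stiff CALR was first (322 ± 17.2 CPM per kb), followed by HSP90B1 (193 ± 4.27), P4HB (172 ± 6.39) and HSPA5 (163 ± 7.93), and CANX had moved from the fifth to the ninth place (86.9 ± 10.4). P4HB and HSPA5 lay within about their spread of each other in stiff. The UPR sensors were among the least abundant members, with ERN1 at 3.79 ± 0.193 CPM per kb in soft and 2.03 ± 0.202 in stiff, and only CLGN and DERL3 ranked below it in stiff.

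Genes beyond the members were counted in 8 lists of 146 genes, all of them tested. Of these 51 (34.9%) were lower in stiff, against 23.8% of all tested genes, and 29 (19.9%) were higher, against 25.3%. Their median log2 fold change was -0.09. Each list holds few genes, and its counts are to be read beside these shares of all tested genes, which several lists lie near. The PERK arm and integrated stress response list had most falls: 11 of 15 fell, 1 rose and 3 did not pass (median -0.51). EIF2AK3, which encodes PERK, fell 1.38-fold (adjusted p = 0.00146, 29.3 ± 1.2 CPM in soft, 21.3 ± 1.67 CPM in stiff, SD, n = 3). The sensor genes ERN1, ATF6 and EIF2AK3 were thus each lower, while ERN2, a paralog of ERN1 with few counts, rose (below). ATF4, a factor downstream of PERK, fell 1.28-fold (adjusted p = 0.0054). The stress factor DDIT3, also called CHOP, fell 2.36-fold (69.5 ± 5.35 to 29.5 ± 6.1 CPM, SD, n = 3, adjusted p = 4.2e-05). PPP1R15A, which restores translation, fell 1.42-fold (adjusted p = 0.00563). CEBPB, a transcription factor of several stress responses, rose 1.16-fold (adjusted p = 0.0365). ASNS and STC2, targets of ATF4, fell 8.07-fold and 11.7-fold, which was more than any member except CLGN.

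Among 14 other UPR transducers, 5 fell, 2 rose and 7 did not pass. Those that rose were ERN2 (2.11-fold, 0.649 ± 0.156 to 1.38 ± 0.534 CPM, SD, n = 3, adjusted p = 0.023) and TRAF2 (1.47-fold, adjusted p = 0.000381). ATF6B, the paralog of ATF6, fell 1.46-fold (adjusted p = 0.000132), CREB3L2, an ATF6-like membrane factor, fell 1.67-fold (adjusted p = 0.000355), and MBTPS1, the first protease that cleaves ATF6, fell 1.25-fold (adjusted p = 0.00393). TMBIM6, an ER membrane protein that restrains IRE1, had means of 988 ± 23.3 and 982 ± 25 CPM (soft and stiff, SD, n = 3; adjusted p = 0.922). Of 17 genes of ER oxidation and other isomerases, 7 fell and 5 rose. ERO1A, the oxidase that recharges P4HB, rose 1.49-fold (adjusted p = 0.000173), from 453 ± 39.3 CPM to 674 ± 17.9 CPM (SD, n = 3), and QSOX1, another sulfhydryl oxidase, rose 1.28-fold (adjusted p = 0.00141). DNAJC10, a BiP-binding reductase for ERAD substrates, fell 2.1-fold (adjusted p = 6.46e-06) and the ER peroxidase GPX8 fell 1.74-fold (adjusted p = 4.14e-05).

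Of 28 other ERAD genes, 10 fell and 8 rose, where 23.8% of all tested genes were lower and 25.3% higher. UBE2J1, the ubiquitin-conjugating enzyme of the SYVN1 complex, fell 1.67-fold (adjusted p = 2.15e-05), ERLIN2, an ER membrane scaffold, fell 1.65-fold (adjusted p = 5.53e-05), and UBXN4, which recruits the extraction ATPase, fell 1.38-fold (adjusted p = 0.000258). VCP, that ATPase, had means of 393 ± 10.4 and 373 ± 6.54 CPM (soft and stiff, SD, n = 3; adjusted p = 0.334). Of 16 other translocon, targeting and signal peptidase genes, 4 fell and 1 rose. SRPRB, a subunit of the signal recognition particle receptor, fell 1.72-fold (adjusted p = 0.000101) and SEC11C, a signal peptidase subunit, fell 2.09-fold (adjusted p = 9.73e-05), whereas SSR3 and TRAM1, translocon-associated proteins, did not pass (adjusted p = 0.116 and 0.0907).

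Of 19 nucleotide exchange, cochaperone and prolyl isomerase genes, 3 fell, 3 rose and 13 did not pass. DNAJB12, a J protein of the ER membrane, fell 1.5-fold (adjusted p = 7.05e-05), the prolyl isomerase FKBP9 rose 1.38-fold (adjusted p = 0.000802) and CRELD1, a relative of CRELD2, rose 2.21-fold to 12.5 ± 1.17 CPM (SD, n = 3, adjusted p = 0.000447). PPIB, the ER cyclophilin, did not pass (adjusted p = 0.724). Of 19 N-glycosylation and glucose trimming genes, 5 fell and 4 rose, with the oligosaccharyltransferase catalytic subunit STT3A 1.4-fold lower (adjusted p = 0.000627) and the small subunit OST4 1.82-fold higher (adjusted p = 0.000513). RPN2, of the same enzyme, and GANAB, the glucosidase of the calnexin cycle, did not pass (adjusted p = 0.0908 and 0.129). Of 18 ER to Golgi traffic genes, 6 fell and 5 rose. KDELR1, a receptor that returns escaped chaperones to the ER, rose 1.6-fold (adjusted p = 0.000137), from 173 ± 9.02 CPM to 276 ± 29.2 CPM (SD, n = 3), while its relative KDELR2 did not pass (adjusted p = 0.0966). The cargo receptor subunit MCFD2 fell 1.52-fold (adjusted p = 0.000148) and the cargo receptor SURF4 fell 1.16-fold (adjusted p = 0.0134).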

How the data were processed

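RNA from 6 libraries of Cal27 spheroids was analysed, 3 per condition. The libraries were directional and paired-end, per the labels' protocols. The submitters' processing notes name build hg38, the counter featureCounts 1.6.2, the aligner STAR 2.6.1e, the trimmers cutadapt 1.9.1 and Trim Galore 0.4.2, and FastQC 0.11.7. For the annotation, strand setting and treatment of multi-mapping reads, the sources used here give nothing. The deposited counts are whole fragments per gene symbol, not normalized (30656278 to 40583044 per library). The deposited TPM were made by the authors from the same libraries and given to 1 decimal. They served for alternative fits and remarks on abundance, not for the main test.

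The test was edgeR 4.0.16 (R 4.3.3; TMM, default count filter, quasi-likelihood F test, no covariate), with Benjamini-Hochberg adjustment over 18676 genes and a threshold of 0.05. The SE is the log2 fold change over the root of F, and intervals are at 95%. Alternatives used DESeq2 1.42.0, limma 3.58.1 on log2(TPM + 1) or log2(TPM + 0.1), other scalings and filters, a replicate block and each library left out; a length-trend correction (lowess, span 0.3) was added after seeing the data. On simulated counts for this comparison (18385 genes), the share of changed genes recovered was 22% for a fold change of 1.25, 54% for 1.5, 80% for 2 and 96% for 4, and 7.35% of calls were false. The simulation changed 200 genes, whereas 49.1% of all tested genes were called in the data. The cutoff on unadjusted p therefore differed, and these shares do not carry over to the data.

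Members and lists were chosen with earlier results of these data known. All members are named. Of each other list the text names the 2 most abundant genes, the 2 with the smallest p, and EIF2AK3, ATF4, DDIT3, ERO1A, ATF6B and PPP1R15A. ERN2 and TRAF2 are named as well because they rose. Opposite-strand partners were named where they cover at least 10% of a member's exons. Partners and exon lengths came from GENCODE release 29, positions from RefSeq GRCh38.p14.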

Additional observations from a re-analysis of the deposited data

How the results depend on the processing

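Of the 15 members that fell, 13 kept their call in all 18 alternatives (DNAJC3 and EDEM3 did not), and of the 3 that rose, CALR and EDEM2 did and MANF did not. Of the 16 that did not pass, 6 passed in at least 1 alternative. With each library left out, members higher numbered 2 to 5 and lower 14 to 17, their median log2 fold change ran from -0.15 to -0.10, Hsp70 and Hsp90 genes higher 0 to 2, disulfide isomerases higher 0 to 1 and translocon genes lower 1 to 2; the 5 higher members, 1 isomerase and 2 translocon genes came without stiff replicate 2. Related genes higher ran from 20 to 33. Over all tested genes in these fits, 3746 to 5379 were higher and 3410 to 5224 lower, with the most without stiff replicate 2. With limma on log2(TPM + 1), log2(TPM + 0.1) and log2(TPM + 1) without a filter, the members' median was -0.22, -0.22 and -0.21, where the median of all tested genes was -0.09, -0.11 and -0.04, and 16 related genes rose in each rather than 29 (19 at an adjusted p below 0.01). In these 3 fits, with library size scaling, at that stricter threshold and with length-trend correction, 0 Hsp70 and Hsp90 genes rose. Disulfide isomerases had 1 lower with library size scaling (P4HB), and 1 higher with length-trend correction and with the replicate block (ERP44). With length-trend correction 2 translocon genes fell. Over all tested genes, 51.5% of calls were higher in stiff, against 44.7% with library size scaling and 41.3% to 43.3% in the TPM fits. The causes were not tested.

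Signs turned only for genes that did not pass in any setting (DNAJB9, SDF2L1, CRELD2, PDIA3, PDIA4, ERP29 and DERL2). With library size scaling the log2 values were -0.0154 for CRELD2, -0.0215 for PDIA4 and -0.0563 for DERL2. With limma on log2(TPM + 1), with or without the filter, they were -0.0722 for CRELD2, -0.0751 for PDIA4, -0.0207 for ERP29 and -0.0937 for DERL2; with log2(TPM + 0.1), -0.0777, -0.0763, -0.0208 and -0.114. PDIA4 was at -0.0470 with length-trend correction. DERL2 was at -0.00500 with DESeq2, -0.00171 with RLE factors, -0.00817 without a count filter and -0.00300 with the replicate block. With 1 library left out, values ran from -0.115 to 0.0727 for DNAJB9, -0.140 to 0.106 for SDF2L1, -0.0534 to 0.0924 for CRELD2, -0.0709 to 0.0289 for PDIA3, -0.0288 to 0.176 for ERP29 and -0.0899 to 0.0753 for DERL2.

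Same-numbered soft and stiff libraries had correlations of deviations of 0.134, 0.319 and 0.0954, so not every pair exceeded 0.1, and the numbers were not taken as pairs. Where only 1 of the soft and stiff libraries was numbered 2, the correlations ran from -0.26 to -0.153. Crossed pairs of replicates 1 and 3 had 0.129 and 0.115. Deviations were taken from the mean of each group and cancel over its libraries. A positive value for 1 pair therefore goes with lower values for others, and these correlations are not separate observations. A shared effect of the libraries numbered 2 was not tested. With the replicate block, 4 members rose and 15 fell, and 33 related genes rose and 55 fell. Of all 18676 tested genes, 5167 rose and 5039 fell with the block, against 4722 and 4449 without it. On simulated counts with 200 changed genes, 22% of 1.25-fold changes were recovered. In the data 49.1% of all tested genes were called, so this share does not give the recovery here. Small differences among the members that did not pass may still be missed.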

Other observations

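The deposited TPM do not rank these genes by abundance per length. For 3843 genes with a TPM of at least 20 in each library, the length that the deposited counts and TPM imply was divided by the GENCODE merged exon length and scaled to a median of 1. The ratio followed the number of transcripts that RefSeq lists for a gene (Spearman rho 0.713, across genes). Its median was 0.802 for 1622 genes with 1 transcript, 1.38 for 1551 genes with 2 to 4, 2.61 for 492 genes with 5 to 9 and 3.83 for 178 genes with 10 or more. Among the 34 ER genes the ratio ran from 0.348 for MANF, with 1 listed transcript, to 9.96 for CANX, with 16, and also reached 8.38 for UGGT1, with 12, and 5.38 for HYOU1, with 15. HSPA5, with 1, was at 0.917. Across the 34 genes the rho was 0.754, and some departed from the order. HERPUD1, with 14, was at 1.49, DNAJC3, with 2, at 4.65 and ERN1, with 1, at 2.3. Thus CANX, at a mean of 905 CPM in soft, is listed at 53.5 to 60.9 TPM, below SDF2L1 in 1 of the 3 soft libraries, although SDF2L1 had 10.7 CPM. When the same gene is compared between libraries its own fixed length cancels, but the TPM scale of each library rests on the lengths of all genes. In the 3 TPM fits the median log2 fold change of all tested genes was -0.0942, -0.111 and -0.0385, against -0.000174 in edgeR. The part of the lengths in this was not tested.

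PDIA3P1, the pseudogene of PDIA3, averaged 193 CPM over the soft and 190 CPM over the stiff libraries (log2 fold change -0.02, SE 0.064, adjusted p = 0.792), with PDIA3 itself at -0.02.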
